A study of Arabidopsis thaliana with 12 samples.

Results

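COR15A (AT2G42540, probe set 263497_at) and COR15B (AT2G42530, probe set 263495_at) are a tandem pair of cold-regulated genes on chromosome 2 of Arabidopsis thaliana. They were chosen by these probe set identifiers, and each gene has 1 named probe set among the 22810 on the Affymetrix ATH1 array. Both passed the filter on low signals described below, so both are among the 13648 tested probe sets.

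The series asked what part membrane fluidity plays in sensing low temperature. It used 12 arrays of whole seedlings at growth stage 1.02, with 6 lines and, for each line, 1 array from the cold and 1 from ambient temperature. The altered lines were 3 mutants and 1 overexpressor. The mutants were fab1 and fad2, both induced by EMS, and the triple mutant fad3/7/8, made by crossing double mutants and carrying apoaequorin according to its titles. The overexpressor was 35S-FAD3, whose 2 arrays are named for that transgene in the titles while their genotype label reads 35S::apoaequorin; the titles were followed here, and each value of 35S-FAD3 depends on that. The control lines were Col-aeq, which carries the calcium reporter apoaequorin, and Col-0, the wild type. Seeds spent 4 days in a fridge and then grew on MS medium in a room at 20 °C, lit for 16 h and dark for 8 h. How cold the treatment was, and how long it lasted, is not stated in the labels. All arrays are labelled as replicate 1, so p-values measure spread between lines and between single arrays, not between separate growths. In whole seedlings, fewer cells of a type and less RNA per cell cannot be told apart.

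COR15 proteins belong to the late embryogenesis abundant proteins. They are made in the cytosol, imported into the chloroplast stroma and trimmed there, and the mature proteins are largely unfolded in water but fold into amphipathic helices as water is withdrawn. They are known to protect the chloroplast inner envelope membrane when freezing dehydrates the cell. COR15A is a classic target of the CBF transcription factors, which bind the C-repeat element in the promoters of cold-regulated genes, and COR15B is its tandem copy.

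One array, Col-aeq at ambient temperature, was unlike the rest in measures of RNA quality. The ratio of 3′ to 5′ signal was 23.3 for actin, against 6.22 to 10.1 on the other 11 arrays, and 3.54 for GAPDH, against 1.11 to 1.66. Its signal for large-subunit rRNA was 2463, against 99.1 to 849 elsewhere. The main comparisons of the pair are therefore also given without the 2 Col-aeq arrays. The tissue label was checked with green-tissue and root genes. The antenna gene LHCB4.1 had signals of 2478 to 3440 in the cold and 3223 to 4144 at ambient temperature. The root glucosidase gene PYK10 had 2231 to 2615 in the cold and 2286 to 2816 at ambient temperature, so both markers had high signals on all arrays. Of 6 tested root genes, 2 were lower in the cold, or 3 without the Col-aeq arrays, and 1 of 2 tested green-tissue genes was lower either way. With all arrays, 18.3% of all tested probe sets passed as lower in the cold. Root genes other than PYK10 stood high in fad2. Of the 6, 5 were highest in fad2 in the cold and 4 at ambient temperature, and 3 passed as higher in fad2 than in the control lines by limma. In that comparison 9.44% of all tested probe sets passed, in either direction. The signals of the 5 root genes other than PYK10 summed in the cold to 681 in fad2 and 243 to 401 in the other lines, and at ambient temperature to 859 in fad2 and 328 to 488 in the other lines. The peroxidase gene AT4G26010 differed most, by 2.06 on the log2 scale in fad2 against the control lines (limma adjusted p = 0.00532). Neither green-tissue gene passed in fad2, and no tested marker was at 0 on any array. The part of these markers in the values below was not tested.

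COR15A was high on every cold array and several-fold lower on every ambient array. Its MAS5 signal in the cold was 1228 in fab1, 1290 in fad2, 1835 in fad3/7/8, 1423 in 35S-FAD3, 1710 in Col-aeq and 1499 in Col-0. At ambient temperature it was 166 in fab1, 485.5 in fad2, 319 in fad3/7/8, 215 in 35S-FAD3, 277.5 in Col-aeq and 193 in Col-0. The lowest cold array, fab1, was thus well above the highest ambient array, fad2, and the 2 temperatures did not overlap. COR15A averaged 1497 ± 237 in the cold and 276 ± 117 at ambient temperature (SD, n = 6 lines).

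COR15B followed the same pattern with a wider ambient range. Its signal in the cold was 1270 in fab1, 1175 in fad2, 1408 in fad3/7/8, 1185 in 35S-FAD3, 1418 in Col-aeq and 1262 in Col-0. At ambient temperature it was 75.2 in fab1, 316 in fad2, 223 in fad3/7/8, 113 in 35S-FAD3, 349 in Col-aeq and 183 in Col-0. The cold arrays lay close together, while fab1 and 35S-FAD3 were low and Col-aeq and fad2 high among the ambient arrays; the temperatures did not overlap. COR15B averaged 1286 ± 105 in the cold and 210 ± 109 at ambient temperature (SD, n = 6 lines).

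**Figure D1:**
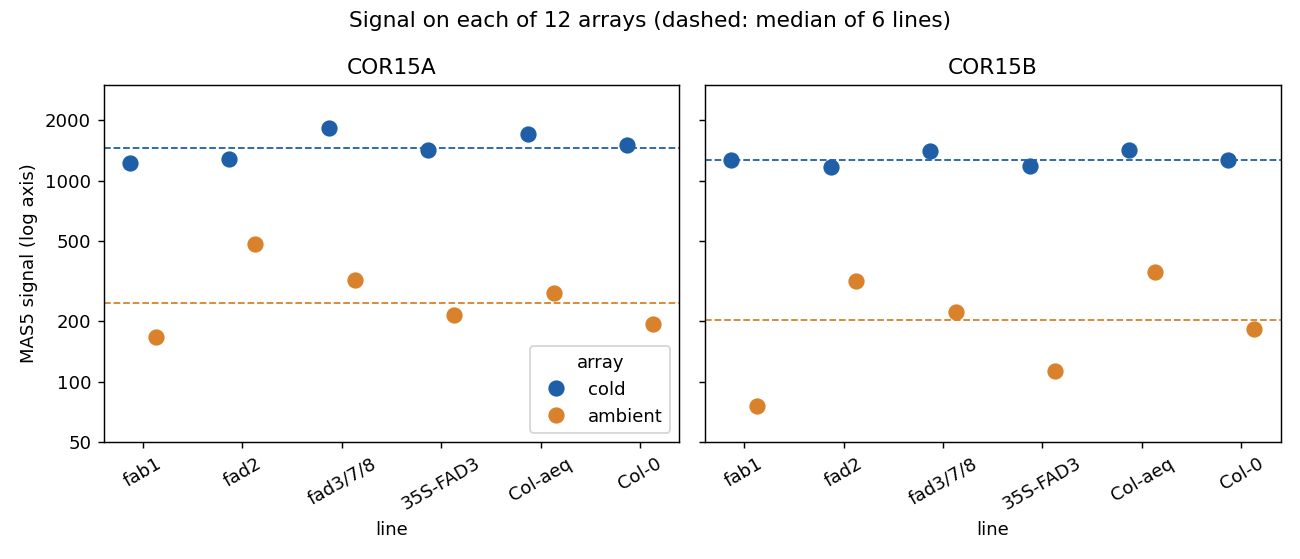
MAS5 signal (log axis) of COR15A (left panel) and COR15B (right panel) for each line, with the cold array left of the ambient array and dashed lines at the median of the 6 lines. The cold points lie between 1175 and 1835 in both panels, and the ambient points run from 75.2 to 485.5.

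Both genes rose in the cold in 6 of 6 lines. On the log2(signal + 1.6) scale COR15A was higher in the cold by 2.51 (SE 0.167, 95% interval 2.14 to 2.88, 5.71-fold; limma adjusted p = 1.11e-06). COR15B was higher by 2.79 (SE 0.235, 95% interval 2.27 to 3.31, 6.92-fold; limma adjusted p = 6.74e-06). Of all 13648 tested probe sets, 15.0% passed as higher in the cold and 18.3% as lower, 33.3% in all. Ordered by the size of the fitted rise, COR15B was number 37 and COR15A number 53 of the 13648, while the median change of all tested probe sets was −0.04. Without the Col-aeq arrays the rises were 2.49 for COR15A (limma adjusted p = 9.89e-07) and 2.95 for COR15B (limma adjusted p = 1.75e-06).

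The size of the rise differed from line to line. For COR15A it was 2.88 in fab1, 1.41 in fad2, 2.52 in fad3/7/8, 2.72 in 35S-FAD3, 2.62 in Col-aeq and 2.94 in Col-0 on the log2 scale. The fad2 value was low, at a signal ratio of 2.66, and the other 5 lines lay between 5.75 and 7.75. For COR15B the rise was 4.05 in fab1, 1.89 in fad2, 2.65 in fad3/7/8, 3.37 in 35S-FAD3, 2.02 in Col-aeq and 2.77 in Col-0. Its signal ratio thus ran from 3.71 in fad2 to 16.9 in fab1. In fad2 both genes had the smallest rise of the 6 lines, where both also had a high ambient signal and where the root genes given above were high. In the cold the fad2 signal was the lowest of the lines for COR15B, 1175, and next to lowest for COR15A, 1290. For COR15B the rise in Col-aeq, 2.02, was close to that in fad2. A rise in 1 line rests on 1 array per temperature and could not be tested on its own.

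The lines were farther apart at ambient temperature than in the cold. For COR15B the SD over the 6 lines was 0.12 in the cold and 0.85 at ambient temperature on the log2 scale, an ambient value 7.27 times as large. For COR15A it was 0.23 in the cold and 0.56 at ambient temperature, 2.48 times as large. Over all tested probe sets the median SD was 0.20 in the cold and 0.25 at ambient temperature, and the median of the ratio was 1.25. In the cold the COR15A SD exceeded that of 61.7% of the tested probe sets and the COR15B SD that of 16.4%. The COR15B ratio exceeded that of 99.6% of the tested probe sets and the COR15A ratio that of 89.9%, which is a description of these arrays and not a test. Leaving out 1 line at a time, the COR15B ratio ran from 4.96 without fab1 to 8.66 without fad3/7/8. The COR15A ratio was lowest without fad2, at 1.68, and highest without fad3/7/8, at 3.22.

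**Figure D2:**
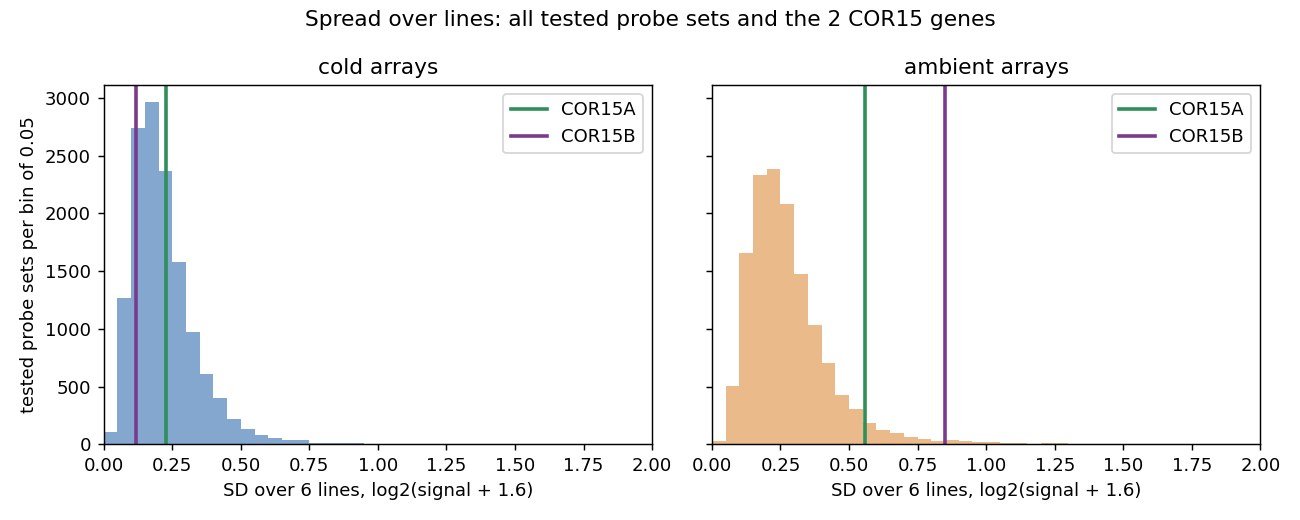
Histograms of the SD over 6 lines on the log2(signal + 1.6) scale for all tested probe sets on the cold arrays (left) and ambient arrays (right), with vertical lines at COR15A and COR15B; SDs of 2 or more are counted in the last bin. Both genes lie in the bulk in the cold, at 0.23 and 0.12, and in the upper tail at ambient temperature, at 0.56 and 0.85.

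In the order of ambient levels COR15A ran fad2, fad3/7/8, Col-aeq, 35S-FAD3, Col-0 and fab1, from high to low. The SD of a difference between 2 single arrays was taken from limma's residual spread, which is shrunk toward that of other probe sets. It was 0.41 for COR15A on the log2 scale. Of the 5 steps between neighbours in that order, 1 was larger, the step of 0.60 between fad2 and fad3/7/8. COR15B ran Col-aeq, fad2, fad3/7/8, Col-0, 35S-FAD3 and fab1. Against its SD of 0.58, 2 steps were larger, 0.68 between Col-0 and 35S-FAD3 and 0.581 between 35S-FAD3 and fab1. Without shrinkage, the SD of the rise over lines was 0.56 for COR15A and 0.82 for COR15B. The COR15A step of 0.60 was larger than that value too, but neither COR15B step was. In the cold the whole range over lines was 0.58 for COR15A and 0.27 for COR15B. For COR15A 0 of 5 cold steps were larger than 0.41, while for COR15B no cold step could have exceeded 0.58. Each of these SDs pools cold and ambient arrays, including the values compared here. They may be too large for steps in the cold and too small for steps at ambient temperature, so these counts are descriptions only.

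Across the 6 lines the correlation between the 2 genes was positive but did not pass an exact test. Pearson's r between them was 0.81 in the cold (exact permutation p = 0.0569), 0.79 at ambient temperature (exact permutation p = 0.0625) and 0.64 for the rise (exact permutation p = 0.167). Spearman's rho was, in the same order, 0.60, 0.77 and 0.77 (exact permutation p = 0.242, 0.103 and 0.103). After Benjamini-Hochberg adjustment over these 3 relations the exact p-values were 0.0938 to 0.167 for r and 0.154 to 0.242 for rho. Without the 2 lines farthest from the COR15A median, r was 0.95, 0.60 and 0.84 over 4 lines; without Col-aeq it was 0.75, 0.87 and 0.78. Both genes were read from the same arrays, so whatever scaled or degraded an array is shared by both values.

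The base levels of the pair can be set side by side only as signals. The 2 probe sets differ in their probes, so a gap between their signals is no ratio of transcripts, and only a change of the gap between arrays can be read. The COR15B signal divided by the COR15A signal on the same array was 0.767 to 1.03 in the cold and 0.453 to 1.26 at ambient temperature. At ambient temperature the ratio was 0.453 in fab1, 0.651 in fad2, 0.699 in fad3/7/8 and 0.526 in 35S-FAD3, against 1.26 in Col-aeq and 0.947 in Col-0. All 4 altered lines were thus below both control lines there. In the cold the ratio was 1.03 in fab1, 0.911 in fad2, 0.767 in fad3/7/8 and 0.832 in 35S-FAD3, against 0.829 in Col-aeq and 0.842 in Col-0, and the altered lines lay on both sides of the control lines. The SD of this gap over lines was 0.15 in the cold and 0.54 at ambient temperature on the log2 scale. Any scaling of a whole array cancels in this ratio. The highest ambient ratio was that of the Col-aeq array whose control probe sets stood apart, and the part of RNA quality in it was not tested.

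The rise of COR15B was not shown to differ from that of COR15A. Within lines, the COR15B rise minus the COR15A rise was 1.17 in fab1, 0.48 in fad2, 0.13 in fad3/7/8 and 0.65 in 35S-FAD3, against −0.60 in Col-aeq and −0.17 in Col-0, on the log2 scale. The mean was 0.28 ± 0.63 (SD, n = 6 lines), positive in 4 of 6 lines, with an exact two-sided sign-flip permutation p = 0.344, where the smallest p that 6 lines allow is 0.0313. Without fab1 the mean was 0.10, and without Col-aeq it was 0.45 (exact sign-flip p = 0.188).

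**Figure D3:**
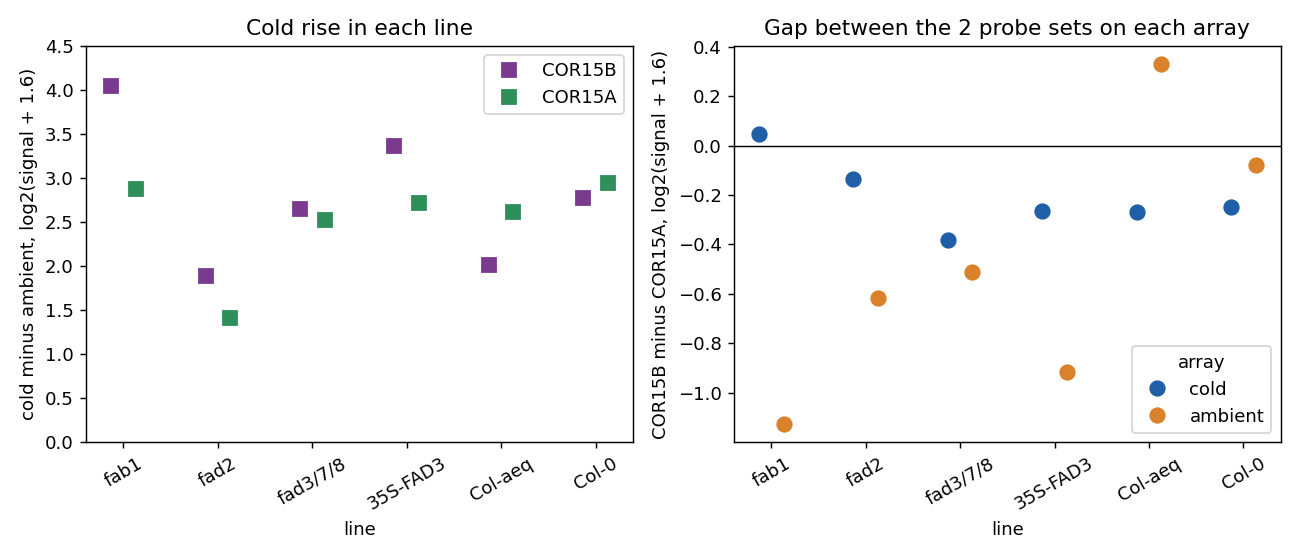
Left, the cold rise of COR15B and COR15A in each line on the log2(signal + 1.6) scale. Right, the log2 signal of COR15B minus that of COR15A on each cold and ambient array. The COR15B rise is the larger in fab1, fad2, fad3/7/8 and 35S-FAD3 and the smaller in Col-aeq and Col-0, and the gaps on the ambient arrays run from −1.13 to 0.33.

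Averaged over both temperatures, neither gene passed limma's test in an altered line against the mean of the control lines. In fab1 COR15A stood at −0.43 (SE 0.251, 95% interval −0.98 to 0.12) and COR15B at −0.90 (SE 0.352, 95% interval −1.68 to −0.13; unadjusted p = 0.0267, limma adjusted p = 0.79). In fad2 COR15A stood at 0.38 (95% interval −0.18 to 0.93) and COR15B at 0.07 (95% interval −0.71 to 0.84). In fad3/7/8 they stood at 0.33 (95% interval −0.23 to 0.88) and −0.05 (95% interval −0.83 to 0.72). In 35S-FAD3 they stood at −0.14 (95% interval −0.69 to 0.42) and −0.66 (95% interval −1.44 to 0.12). Without the Col-aeq arrays, with Col-0 as the control line left, COR15A stood at −0.25 in fab1, 0.55 in fad2, 0.50 in fad3/7/8 and 0.04 in 35S-FAD3. COR15B then stood at −0.63 in fab1, 0.34 in fad2, 0.22 in fad3/7/8 and −0.39 in 35S-FAD3, and none passed. Against Col-aeq alone, which carries apoaequorin as fad3/7/8 does by its titles, fad3/7/8 stood at 0.15 for COR15A and −0.33 for COR15B. That comparison rests on the Col-aeq ambient array whose RNA measures stood apart. With all arrays 0 of 8 comparisons passed by limma, 1 of 8 had an unadjusted p under 0.05, and the limma adjusted p-values were 0.384 to 0.96. The share of all tested probe sets that passed was 0.0147% for fab1, 9.44% for fad2, 0.0293% for fad3/7/8 and 0.205% for 35S-FAD3. These intervals still allow differences of more than 1 on the log2 scale for COR15B in fab1 and 35S-FAD3.

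The size of the rise was also compared between the 3 mutant lines and the 2 control lines. The COR15A rise differed by −0.51 (SE 0.364, 95% interval −1.33 to 0.31; limma adjusted p = 0.727) and the COR15B rise by 0.47 (SE 0.516, 95% interval −0.69 to 1.63; limma adjusted p = 0.826), mutant minus control. By limma 0 of the 13648 probe sets, 0%, passed this comparison, and 1027 had an unadjusted p under 0.05. Single lines weighed heavily on both values. The COR15A difference was −0.82 without fab1, −0.08 without fad2 and −0.68 without Col-aeq. The COR15B difference was −0.13 without fab1, 0.95 without fad2, 0.09 without Col-aeq and 0.85 without Col-0, and 0.14 with 35S-FAD3 counted among the control lines.

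Other genes of the CBF cold pathway were counted from a list by gene identifier. Among 20 regulators, named probe sets existed for 2, and both were tested. STZ, a zinc-finger repressor induced early by stress, rose by 3.95 (SE 0.12; limma adjusted p = 3.18e-09), with signals of 637 to 881 in the cold and 34.3 to 67.4 at ambient temperature. EIN3, the ethylene-response factor known to repress CBF genes, stood at −0.04 (SE 0.174; limma adjusted p = 0.882). Its ambient signal was 126 on the Col-aeq array, against 293 to 372 in the other lines, and without Col-aeq it fell by 0.27 (limma adjusted p = 0.00979). The 3 CBF genes themselves were not among the named probe sets. The naming used gave a single gene to 13513 of the 22810 probe sets. A gene without a named probe set, here or below, may therefore still be measured by the array.

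Of 21 further cold-regulated and late embryogenesis abundant genes, named probe sets existed for 6, of which 5 passed the filter. For COR27 and COR28 the median ambient signals were 9.15 and 9.1, under the filter level of 21.9, so they were tested only through their high cold signals and are left out of the count. The other 3 all rose, where 15.0% of all tested probe sets did; their direction was known from earlier results of the same arrays. The dehydrin COR47 had signals of 2096 to 2506 in the cold and 574 to 1054 at ambient temperature, and LTI30, another dehydrin, had 1963 to 2490 in the cold and 426 to 518 at ambient temperature. LEA4-5, a group 4 late embryogenesis abundant protein, rose by 1.74 (SE 0.235; limma adjusted p = 0.000219). The COR15 rises were 2.51 and 2.79, and that of LTI30 was 2.26. COR27 and COR28, which link cold to the circadian clock, had fitted changes of 4.81 and 4.35, whose sizes are uncertain at such low ambient signals. AT3G15670 was under the filter, with signals of 1.2 to 9.5 in the cold and 1.1 to 17.2 at ambient temperature. The 3 genes listed for the protection of chloroplast membranes and RNA, SFR2, CP29A and CP31A, had no named probe set.

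None of the 3 tested neighbours of the pair passed for cold by limma, where 33.3% of all tested probe sets did in either direction. With so few neighbours tested, this does not show that the cold response is confined to the pair. In the order of the RefSeq annotation (TAIR10.1), COR15B and COR15A are direct neighbours, and of the 5 nearest genes on each side 4 had a named probe set. AT2G42520, a DEAD-box RNA helicase gene whose annotated span overlaps that of COR15B, had signals of 153 to 167 in the cold and 133 to 189 at ambient temperature and stood at 0.09 (SE 0.0887; limma adjusted p = 0.472). TBL39, of the family that acetylates cell-wall polysaccharides, stood at −0.05 (SE 0.0951; limma adjusted p = 0.71), and the copper amine oxidase gene AT2G42490 at −0.22 (SE 0.0871; limma adjusted p = 0.069). AT2G42560, another late embryogenesis abundant gene, was under the filter, with signals of 1 to 5.3 in the cold and 0.9 to 2.1 at ambient temperature.

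**Figure D4:**
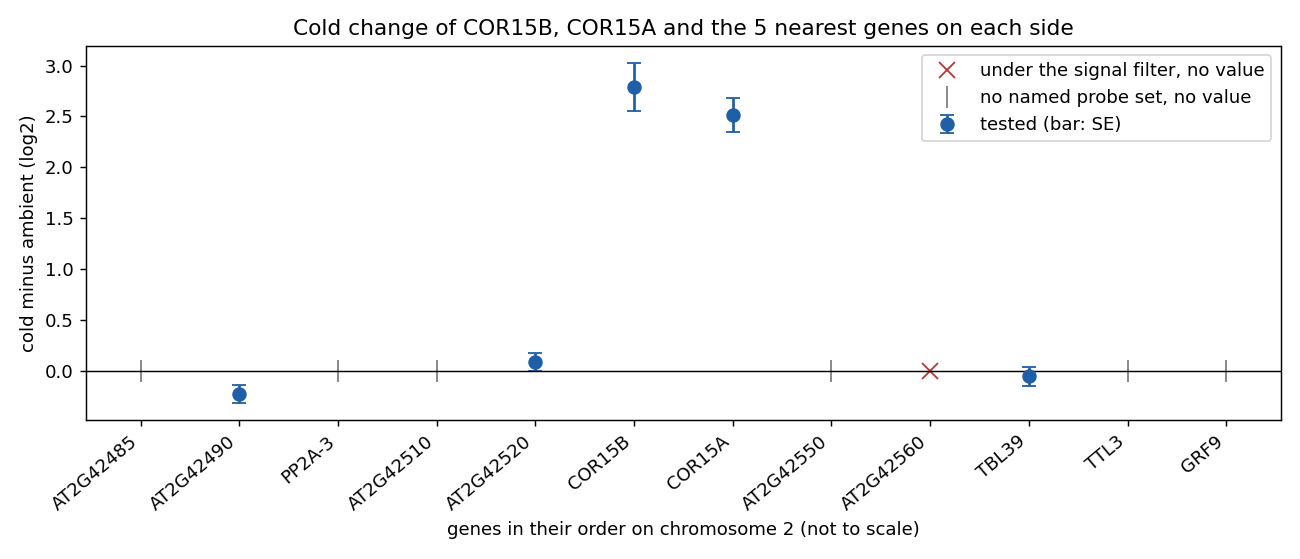
Cold minus ambient change on the log2 scale for COR15B, COR15A and the 5 nearest annotated genes on each side, in their order along chromosome 2; points with SE bars were tested, crosses were under the signal filter and ticks had no named probe set. The pair lies at 2.79 and 2.51, and the 3 tested neighbours lie between −0.22 and 0.09.

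The genes with the pattern most like each member were sought among 7286 other tested probe sets with a single gene. Over all 12 arrays the likeness is mostly that of the cold rise itself. For COR15A the 3 highest correlations were those of AT1G64890, a transporter-like gene (r = 0.986), AT4G36010, of the thaumatin family (r = 0.986), and the protease inhibitor SERPIN1 (r = 0.985), and COR15B came eighth (r = 0.971). For COR15B they were AT2G23120, a small late embryogenesis abundant gene (r = 0.972), COR15A itself (r = 0.971) and AT2G23910 (r = 0.968). The AT2G23910 signals were 44.3 to 77.0 in the cold and 2.5 to 16.3 at ambient temperature, where all were under the filter level. AT2G23910 was thus tested only through its cold signals, and the filter itself favours its likeness to a gene that rises in the cold. Without the Col-aeq arrays COR15A and COR15B were each other's closest match (r = 0.984, 10 arrays). These and the following correlations describe single arrays that share line and temperature, and no p is given.

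With the mean of each temperature taken out, what remains is mainly the order of lines at ambient temperature. AT4G30650, of the RCI2 family of small membrane proteins induced by cold and salt, was most like COR15A (r = 0.889 over 12 arrays and 0.901 without Col-aeq). Its signals at ambient temperature were 125 in fab1, 428 in fad2, 401 in fad3/7/8 and 226 in 35S-FAD3, against 335 in Col-aeq and 169 in Col-0, so fab1 was lowest and fad2 highest, as for COR15A. It rose in the cold by 1.496 (SE 0.179; limma adjusted p = 9.09e-05). The next were AT5G66985 (r = 0.832) and AT4G36010 (r = 0.83). Without Col-aeq AT4G30650 came 2nd, AT5G66985 3rd and AT4G36010 22nd.

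For COR15B the closest by this measure were AT5G06190 (r = 0.869), the iron-sulphur cluster assembly gene AT2G16710 (r = 0.869) and AT2G42520 (r = 0.864), the helicase gene that overlaps COR15B in the annotation. The AT5G06190 signals were low, 19.8 to 25.8 in the cold and 19.4 to 47.6 at ambient temperature. Many were near the filter level of 21.9, so its order of lines is uncertain. The AT2G42520 signals varied far less than those of COR15B. Its ambient signals were 135 in fab1, 160 in fad2, 150 in fad3/7/8 and 133 in 35S-FAD3, against 189 in Col-aeq and 146 in Col-0. The 3 genes share a peak on the Col-aeq ambient array. Without the Col-aeq arrays r was 0.88 for AT2G42520, 0.889 for AT2G16710 and 0.818 for AT5G06190, which then came 6th, 3rd and 18th. By the same measure COR15A and COR15B correlated at r = 0.763, and at 0.848 without Col-aeq.

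**Figure D5:**
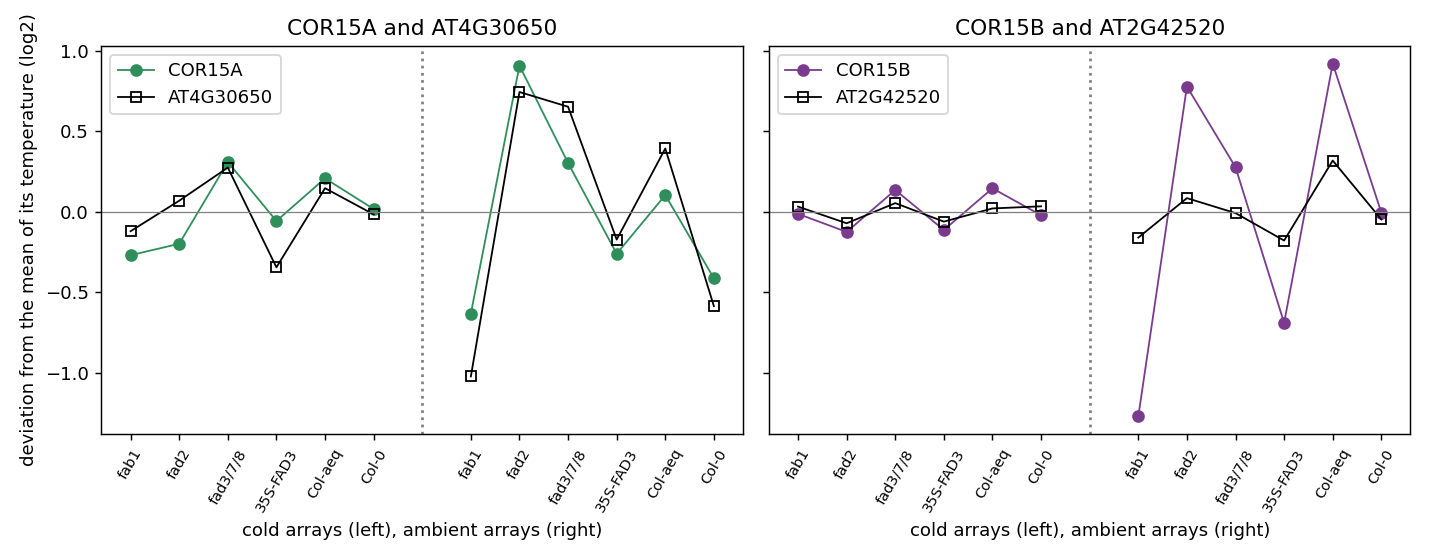
Deviation of each array from the mean of its temperature on the log2 scale, for COR15A with AT4G30650 (left) and COR15B with its overlapping neighbour AT2G42520 (right), with cold arrays left of ambient arrays in each panel. The COR15 genes vary less in the cold, with SDs of 0.23 and 0.12, than at ambient temperature, with SDs of 0.56 and 0.85. AT2G42520 varies less than COR15B, and both are highest at ambient temperature in Col-aeq.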

How the data were processed

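The authors deposited an intensity for each of 22810 probe sets on 12 arrays, as linear MAS5 signals; the submitters' processing notes name MAS5 and GCOS and no settings. Per the labels' protocols, a Qiagen kit gave the RNA, which was labelled by biotin. With 2% trimmed at either end, each array had a mean of 100.0, and the values were not scaled again; 0 pairs of arrays were identical. No read depth exists for arrays, and their number limits the precision. Genes were named from GEO's platform table (13513 probe sets with 1 gene) and matched to RefSeq TAIR10.1 by gene identifier; no probe, promoter or protein sequence was used.

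Signals were analysed as log2(signal + 1.6), 1.6 being the 10th percentile of all values, which understates changes of low signals. After leaving out 64 control probe sets, the 13648 at or above the 40th percentile of the mean log2 signal (21.9 as a signal) were tested. A first run filtered on the mean of the linear signals (22.9, 13649 tested); this was changed after its results were seen, to follow an earlier processing of the same arrays. In R 4.3.3, limma 3.58.1 modelled temperature and line with an intensity trend (5 residual degrees of freedom), and the 6 within-line differences by class of line (3 residual degrees of freedom). Calls were made at 0.05 after Benjamini-Hochberg adjustment over all tested probe sets. The rises of the 2 genes were compared by exact sign flips over 64 patterns. Scripts were tested on simulated data. Tables and figures used Python 3.11.15, NumPy 2.4.6, pandas 2.3.3, SciPy 1.17.1 and matplotlib 3.10.9.

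The named genes are the 2 members, the 3 genes most correlated with each over 12 arrays and after removing temperature means, a pathway list and the 5 nearest genes on each side. Members and lists were chosen with earlier results of these data known. Alternatives were quantile normalization, median centring, other pseudocounts, a floor, other filters, no trend, array weights, no pairing by line, dropping either control line, other classes, and leaving out each line or array. Those on the linear filter, the marker and pathway counts, the rise difference between altered and control lines, the spread over lines, and the correlations, likeness and EIN3 without Col-aeq were chosen after seeing the data.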

Additional observations from a re-analysis of the deposited data

Results flagged for a closer look

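Of 9 sets of 6 line values for the pair (signals, rises and gaps), 1 had a line far from the others. The COR15A rise in fad2, 1.41 on the log2 scale, lay apart from the other 5 lines by 0.723 of the whole range, over the limit of 0.625 for 6 values. Chance marks about 1 in 20 such sets. The COR15B rise in fad2, 1.89, was also the lowest of its 6 lines but within the limit, and the fad2 ambient signals were 485.5 and 316.

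The difference between the COR15B rise and the COR15A rise had opposite signs in altered and control lines. It was 1.17 in fab1, 0.48 in fad2, 0.13 in fad3/7/8 and 0.65 in 35S-FAD3, and −0.60 in Col-aeq and −0.17 in Col-0. The mean was 0.61 ± 0.43 (SD, n = 4) in altered lines and −0.38 (n = 2) in control lines, a difference of 0.99. The exact two-sided permutation p was 0.0667 over 15 splits, which is the smallest these lines allow. This comparison was chosen after the values were seen to separate. That choice held the p at or near its smallest value, so the p lends the difference no support. The difference was 0.78 without the Col-aeq arrays, where 1 control line is left, and 0.81 to 1.15 without each altered line in turn.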

How the results depend on the processing

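The cold rises of COR15A and COR15B passed under all 56 alternatives run for them (limma adjusted p 4.71e-08 to 6.63e-05), with rises of 2.43 to 2.73 and 2.54 to 2.97 when a line or array was left out. By construction, leaving out 1 array gave the same rise as leaving out its line, so these alternatives are not separate checks. None of the 72 alternatives for single lines, the 22 for classes of lines or the 9 for the difference between the rises passed. Some values that had not passed changed sign. COR15B in fad2 stood at −0.038 with median centring and −0.21 without Col-0, COR15B in fad3/7/8 at 0.22 and COR15A in 35S-FAD3 at 0.039, both without Col-aeq. Leaving out 1 line, the mutant minus control difference in rise ran from −0.13 to 0.95 for COR15B and −0.82 to −0.08 for COR15A, and the COR15B minus COR15A rise from 0.10 to 0.45, where the smallest exact p that 5 lines allow is 0.0625. Between 3422 and 5295 probe sets passed for cold, against 4538. Scaling moved the median cold change by at most 0.02. The cold and ambient arrays were paired by line, since every array is labelled replicate 1; with no replicate block the rises stay 2.51 and 2.79 by construction, and both passed (limma adjusted p = 5.53e-07 and 5.69e-06). Filtering on the mean of the linear signals, the setting of a first run, gave 4573 calls for cold among 13649 probe sets. Each level rests on 1 array per line and temperature.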
